A study of Mus musculus with 48 samples.

Results

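The comparison described here is that of E6l2-Trp53-KO cells with Trp53-KO cells, both grown for 48 h in etoposide. It rests on 6 of the 48 libraries of the series, 3 per genotype, taken by their genotype and treatment labels and leaving out the libraries of transformed clones. E6l2 stands for Ercc6l2, and E6l2-Trp53-KO cells carry edits of Ercc6l2 and of Trp53, the gene of p53, while the Trp53-KO cells carry the Trp53 edit alone. Every library came from the Cas9-Hoxb8 GMP line, mouse progenitors of granulocytes and monocytes that a conditional Hoxb8 protein keeps growing and that carry Cas9 for editing. The same genotypes were also grown for 48 h in DMSO, the solvent, and at high cell density, and E6l2-KO and wildtype cells, in which Trp53 is intact, were treated in the same ways. Wells received 0.25 M cells, or 4 M for high density (M, in units of 1e06). For the drug, the sources used here give no concentration. Separately edited lines of 1 genotype are not named in the labels, so an effect of the second edit cannot be told apart from a difference between 2 edited lines. They also do not say whether the 3 libraries of a group came from separate cultures. The p-values measure the spread between libraries within groups, estimated over 36 libraries of 12 groups of the series, and that spread may be technical.

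Etoposide traps topoisomerase II on DNA and leaves double-strand breaks. In cells with intact p53 such breaks raise p53, which turns on genes that stop the cell cycle or start apoptosis. ERCC6L2 is a SNF2-family protein linked to the joining of DNA ends, and in humans its inherited loss causes bone marrow failure that can progress to myeloid leukaemia. The comparison asks what the loss of Ercc6l2 changes under a DNA-breaking drug when p53 is already gone.

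Libraries held 25.6, 23.5 and 40.9 M counts in E6l2-Trp53-KO cells and 29.8 to 30.8 M in Trp53-KO cells. Library 3 of E6l2-Trp53-KO cells stood apart. Over its degrees of freedom, the chi-square of its counts was 47.2 against library 1 and 49.1 against library 2, whereas the ratio was 4.45 between libraries 1 and 2 and 4.98 to 11.6 among the Trp53-KO libraries. It had 14302 genes with at least 10 counts, against 12970 to 13056 in the other 5. Its column is the third of the deposited table, whereas the other 5 are in columns 44 to 48. The sources used here do not say how its handling differed. Main results that change without it are given both ways. List counts given once are from all libraries, and some of them were smaller without library 3. Levels are counts per M counts (CPM) on the TMM scale, and fold changes, standard errors (SE) and adjusted p-values are from the edgeR quasi-likelihood test with Benjamini-Hochberg adjustment over all genes tested. Genes with an adjusted p under 0.05 are written of as called.

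The edited genes themselves were read first. Trp53 (ENSMUSG00000059552) stood at 29.6, 30.6 and 38.8 CPM in the E6l2-Trp53-KO libraries and at 28.1, 27.8 and 28.9 CPM in the Trp53-KO libraries. Both groups lay far below the etoposide-treated cells with intact Trp53, at 96.1 ± 7.36 CPM in E6l2-KO and 85.0 ± 1.88 CPM in wildtype cells (SD, n = 3 each). Ercc6l2 (ENSMUSG00000021470) mRNA had 27.4, 26.9 and 30.5 CPM in E6l2-Trp53-KO cells and 26.2, 27.3 and 27.7 CPM in Trp53-KO cells. These values overlap (log2 fold change 0.07, SE 0.06, edgeR adjusted p = 0.44). A small edit can end a protein and leave its mRNA, so the Ercc6l2 level does not check the label. The Trp53 difference between the genotypes, a log2 fold change of 0.24 (edgeR adjusted p = 0.029), rested on library 3, since without it the value was 0.08 (adjusted p = 0.6). Of 5 neighbours of Ercc6l2 on chromosome 13, Ptch1, a Hedgehog receptor, was called (log2 0.30), while Fancc (-0.12), Slc35d2 (0.02), Zfp367 (-0.16) and Habp4 (0.22) were not called.

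Among genes of granulocyte and monocyte progenitors, Mpo and Kit were high in both genotypes, whereas Elane, given below, was far lower in both. Mpo, the main peroxidase of primary granules, had 1865 ± 26.4 CPM in E6l2-Trp53-KO and 2331 ± 141 CPM in Trp53-KO cells (SD, n = 3 each), and the stem and progenitor receptor Kit had 337 ± 12.9 CPM in E6l2-Trp53-KO and 309 ± 2.30 CPM in Trp53-KO cells. Of 32 markers of mature neutrophils, 17 were under 1 CPM in E6l2-Trp53-KO and 19 in Trp53-KO cells.

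Across the transcriptome the second edit went with many differences of modest size. Of 14059 genes tested, 3388 (24.1%) were called in etoposide, 1692 higher (12%) and 1696 lower (12.1%) in E6l2-Trp53-KO cells, with a median absolute log2 change of 0.31 among them. Large changes were mostly increases, with 428 genes at least 2-fold higher and 55 at least 2-fold lower. Without library 3, 2045 of 14292 genes (14.3%) were called, 1056 higher (7.39%) and 989 lower (6.92%), and 1848 of the 3388 calls (54.5%) were made again in the same direction. With a spread estimated from the 6 libraries alone, 1332 genes were called, 850 higher and 482 lower. Members of the gene lists used here were called 405 times with all libraries, 258 times without library 3 and 177 times with the 6 libraries alone. A list whose share of calls is near 24.1% shows no more than genes at large.

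The genes that rose most were low or nearly silent in Trp53-KO cells, and several are known from lymphocytes. Cd27 (ENSMUSG00000030336), a costimulatory receptor of the TNF receptor family, had 5.79, 7.89 and 5.29 CPM in E6l2-Trp53-KO cells, against 0.635, 0.441 and 0.298 CPM in Trp53-KO cells. That is a 13.6-fold higher level (log2 3.76, SE 0.23, edgeR adjusted p = 1.1e-14), and every E6l2-Trp53-KO library was above every Trp53-KO library. Icos, another T cell costimulatory receptor, had 8.62, 8.95 and 11.7 CPM in E6l2-Trp53-KO and 1.05, 1.76 and 1.19 CPM in Trp53-KO cells. Ptprcap, a membrane protein bound to the phosphatase CD45, had 23.9, 27.4 and 20.9 CPM in E6l2-Trp53-KO and 4.16, 2.90 and 3.50 CPM in Trp53-KO cells. Neither pair of groups overlapped, and the log2 fold changes were 2.88 for Icos and 2.76 for Ptprcap. The rule that picked the largest changes admitted only genes without overlap, so the separation of these genes is no added support.

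Other large increases were in genes of signalling, proteolysis and membrane lipids. Tfpi, an inhibitor of the tissue factor pathway of coagulation, had 15.4, 10.6 and 15.2 CPM in E6l2-Trp53-KO cells and 1.27, 1.29 and 1.09 CPM in Trp53-KO cells (log2 3.50). Capn2, the catalytic subunit of the calcium-dependent protease m-calpain, had 13.4, 12.7 and 12.2 CPM in E6l2-Trp53-KO cells and 1.56, 1.23 and 1.26 CPM in Trp53-KO cells (log2 3.24). The groups were far apart for both genes and tight within each genotype for Capn2. Pim2, a survival kinase induced by cytokines, had 38.1, 38.1 and 42.4 CPM in E6l2-Trp53-KO cells, against 6.19, 6.68 and 6.08 CPM in Trp53-KO cells. Its 3 values in each genotype were close together, and the level was 6.27-fold higher (edgeR adjusted p = 2.1e-15). Smpd3, a neutral sphingomyelinase, rose 4.74-fold, and Pgap4, an enzyme that adds a sugar to GPI anchors, rose 8.72-fold. Perp, a membrane protein first described as a p53 target in apoptosis, rose 6.2-fold to 8.80 ± 1.09 CPM in E6l2-Trp53-KO cells, against 1.42 ± 0.165 CPM in Trp53-KO cells (SD, n = 3 each). Klra1, Hbb-bt and Crisp3 rose 12.1-fold, 6.34-fold and 5.38-fold, but they belong to families of near-identical genes, and the counts of single members are uncertain.

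**Figure D1:**
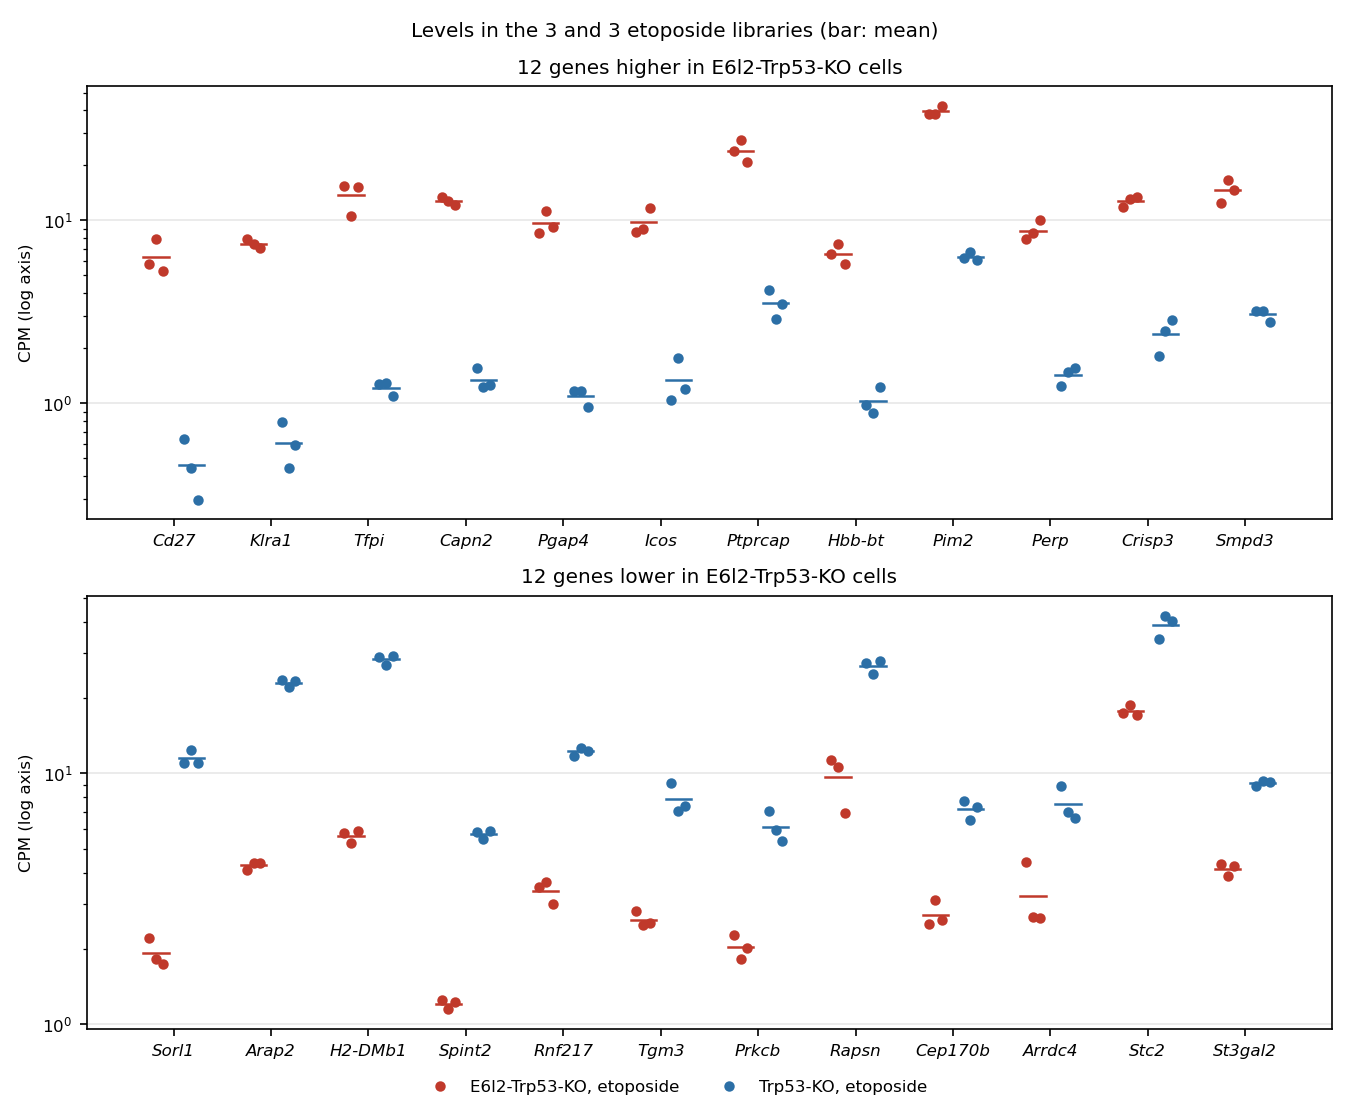
Levels of the 12 genes with the largest increases and the 12 with the largest decreases under the naming rule, in CPM on a log axis, one point per library and a bar at the mean of 3, with E6l2-Trp53-KO cells in red at the left of each pair and Trp53-KO cells in blue at the right. For Cd27 the E6l2-Trp53-KO libraries sit at 5.79, 7.89 and 5.29 CPM and the Trp53-KO libraries at 0.635, 0.441 and 0.298 CPM, and the rule admitted only genes whose groups do not overlap.

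The genes that fell most were fewer, and their changes were smaller than the largest increases. Sorl1, a sorting receptor of endosomes, had 2.20, 1.81 and 1.74 CPM in E6l2-Trp53-KO cells, against 11, 12.4 and 11 CPM in Trp53-KO cells, a 6.02-fold lower level (log2 -2.59, SE 0.15, edgeR adjusted p = 1.3e-15). Arap2, a regulator of small GTPases, had 4.11, 4.38 and 4.38 CPM in E6l2-Trp53-KO and 23.4, 22 and 23.3 CPM in Trp53-KO cells (log2 -2.41). H2-DMb1, a chain of the molecule that loads peptides on MHC class II, had 5.76, 5.28 and 5.87 CPM in E6l2-Trp53-KO and 29.0, 27.0 and 29.4 CPM in Trp53-KO cells (log2 -2.33). Within each genotype these 3 genes varied little, and the genotypes were separated in all libraries, as the naming rule required. Spint2, an inhibitor of serine proteases at the cell surface, fell to 1.21 ± 0.0549 CPM in E6l2-Trp53-KO cells, against 5.72 ± 0.240 CPM in Trp53-KO cells (SD, n = 3 each). Prkcb, the protein kinase C isoform of immune cells, was at 2.03 ± 0.230 CPM in E6l2-Trp53-KO and 6.11 ± 0.861 CPM in Trp53-KO cells. The ubiquitin ligase Rnf217 (log2 -1.86), the transglutaminase Tgm3 (-1.59), Rapsn, a scaffold of acetylcholine receptors, (-1.51), the centrosomal Cep170b (-1.41), the arrestin-related Arrdc4 (-1.24) and the sialyltransferase St3gal2 (-1.13) fell as well. Stc2, a secreted glycoprotein induced by stress, had 17.3, 18.7 and 17.1 CPM in E6l2-Trp53-KO and 34.3, 42.5 and 40.2 CPM in Trp53-KO cells (log2 -1.14).

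Most genes of the neutrophil primary granule fell, and more than 1 in 2 of the mast cell, megakaryocyte and erythroid genes tested rose. Of 14 primary granule genes tested, 10 were called lower and 1 higher, with a median log2 change of -0.53 against 0.00 over all genes tested. The counts were the same without library 3, and with the spread of the 6 libraries alone 9 were lower and 1 higher. Elane, neutrophil elastase, had 17.4, 16.1 and 13.5 CPM in E6l2-Trp53-KO cells and 35.5, 26.9 and 37.2 CPM in Trp53-KO cells. Every E6l2-Trp53-KO library was below every Trp53-KO library (log2 -1.09, SE 0.13, edgeR adjusted p = 6.6e-08). Prtn3, proteinase 3, had 211, 216 and 152 CPM in E6l2-Trp53-KO and 375, 307 and 370.1 CPM in Trp53-KO cells, and Ms4a3, a membrane protein of committed granulocyte and monocyte progenitors, had 375, 327 and 363 CPM in E6l2-Trp53-KO and 652, 574 and 621 CPM in Trp53-KO cells. Neither gene's groups overlapped, and library 3 was the lowest for Prtn3. Most list members described here and below were picked for having the lowest p of their list in this comparison. Their small p and the lack of overlap between their groups are therefore no added support. Mpo fell less, by a log2 change of -0.32 (edgeR adjusted p = 0.0022). The 1 member that rose was Nkg7, a granule protein of natural killer cells and T cells (log2 1.00). The summed level of the list was 5527 to 6285 CPM in E6l2-Trp53-KO libraries and 7681 to 8689 CPM in Trp53-KO libraries. In these bulk samples, fewer cells of a type and less RNA per cell cannot be told apart.

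On the mast cell and basophil side, 10 of 18 genes tested were called higher and 1 lower, with a median log2 change of 0.33. Cpa3, mast cell carboxypeptidase, had 2202, 2119 and 2566 CPM in E6l2-Trp53-KO cells and 1249, 1381 and 1249 CPM in Trp53-KO cells. It was 1.78-fold higher, in all 3 libraries above all 3 Trp53-KO libraries (edgeR adjusted p = 2.0e-11). Slc18a2, the vesicular amine transporter that loads histamine and serotonin, had 53.6, 60.4 and 67.6 CPM in E6l2-Trp53-KO and 26.7, 28.2 and 29.5 CPM in Trp53-KO cells. Il1rl1, the receptor of interleukin 33, had 4.80, 4.06 and 5.11 CPM in E6l2-Trp53-KO and 1.14, 1.26 and 1.59 CPM in Trp53-KO cells. Both genes were separated between the genotypes, at log2 changes of 1.11 and 1.82. The member that fell was Hdc, which makes histamine, at a log2 change of -0.20 that was not called without library 3 (named after its values were seen). The defining marker Fcer1a, the alpha chain of the IgE receptor, was at 0 in both genotypes, and Cma2, Tpsb2, Alox5 and Mrgprb2 were at 0 in Trp53-KO cells. The list summed to 4765 to 5245 CPM in E6l2-Trp53-KO and 3790 to 3828 CPM in Trp53-KO libraries.

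Among megakaryocyte and erythroid genes, 9 of 16 tested were called higher and 1 lower, with a median log2 change of 0.64. The summed level differed less, at 1212 to 1302 CPM in E6l2-Trp53-KO and 1128 to 1181 CPM in Trp53-KO libraries. Of the 28 members, 16 were under 1 CPM in E6l2-Trp53-KO and 18 in Trp53-KO cells. Gata1, the transcription factor of these branches, had 2.24, 2.48 and 2.21 CPM in E6l2-Trp53-KO cells, against 0.571, 0.315 and 0.628 CPM in Trp53-KO cells (log2 2.18, SE 0.24, edgeR adjusted p = 1.4e-08). Itga2b, the platelet integrin chain CD41, had 93.9, 107 and 83.4 CPM in E6l2-Trp53-KO and 46.2, 50.2 and 56.5 CPM in Trp53-KO cells, and Car2, carbonic anhydrase 2, had 389, 378 and 362 CPM in E6l2-Trp53-KO and 267, 263 and 260.1 CPM in Trp53-KO cells. All 3 genes were higher in every E6l2-Trp53-KO library. Gfi1b, a repressor that works with Gata1 in these lineages, rose by a log2 change of 0.90, and Tal1, another of their transcription factors, by 0.47. Of the red cell genes in the list, the globin Hbb-bt rose 6.34-fold as given above, whereas Hba-a1, Hba-a2 and Alas2 were at 0 in both genotypes and Slc4a1 was at 0 in Trp53-KO cells.

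Lymphoid genes gave 5 called higher and 1 lower of 15 tested, with a median log2 change of 0.40. There were 3 higher and 1 lower without library 3. Il7r, the interleukin 7 receptor, had 4.84, 3.35 and 4.73 CPM in E6l2-Trp53-KO and 1.65, 1.95 and 1.65 CPM in Trp53-KO cells, and Rag1, the recombinase of antigen receptor genes, had 5.13, 3.86 and 6.01 CPM in E6l2-Trp53-KO and 3.05, 2.49 and 2.21 CPM in Trp53-KO cells. Both were higher in all E6l2-Trp53-KO libraries. The list as a whole summed to 208 to 244 CPM in E6l2-Trp53-KO and 212 to 223 CPM in Trp53-KO libraries, so its summed level overlapped. The natural killer genes Ncr1, Gzma and Gzmb were at 0 in both genotypes. Of 23 monocyte, macrophage and dendritic genes, 4 were called higher and 7 lower. Cd14, a co-receptor for bacterial lipopolysaccharide, had 36.2, 38.6 and 42.3 CPM in E6l2-Trp53-KO and 85.4, 74.8 and 71.7 CPM in Trp53-KO cells (log2 -0.98). F13a1, the A chain of coagulation factor XIII, fell by 0.86 on the log2 scale. Among mature neutrophil genes 7 of 19 were higher and 3 lower, and without library 3 there were 4 higher and 2 lower. The summed level of the mature neutrophil list overlapped, at 1027.9 to 1089.5 CPM in E6l2-Trp53-KO and 1043 to 1055 CPM in Trp53-KO libraries. The monocyte, macrophage and dendritic list summed to 1557 to 1813 CPM in E6l2-Trp53-KO and 2410 to 2595 CPM in Trp53-KO libraries. Cells of these lineages cannot be told apart from progenitors that express some of their genes in these samples, and the part of either in the results was not tested.

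**Figure D2:**
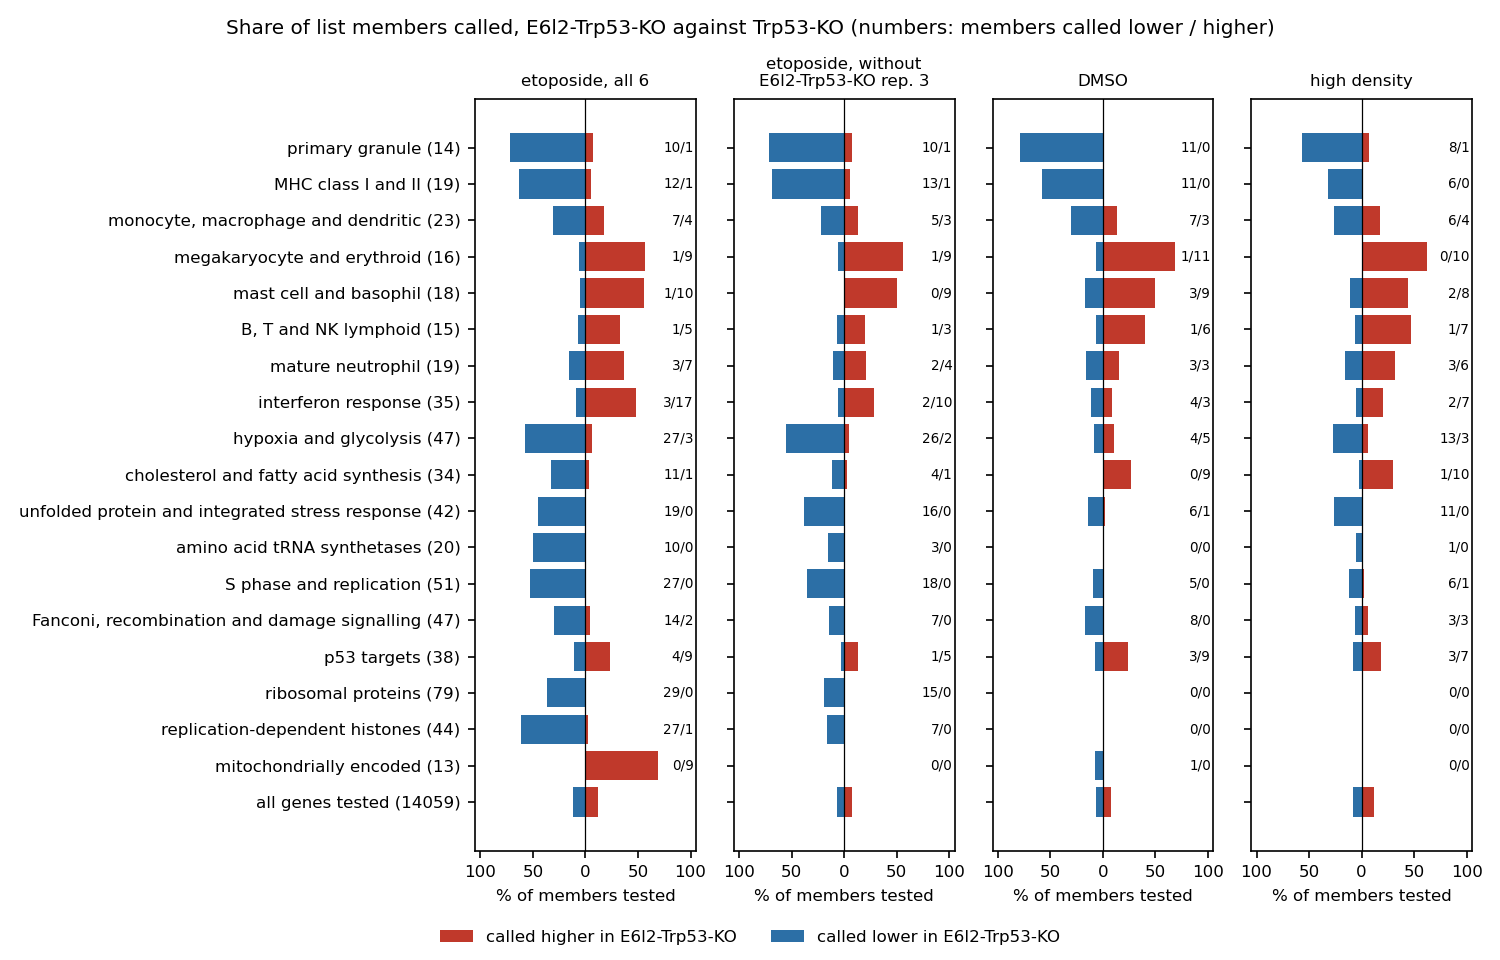
Share of the tested members of each gene list that were called higher (red, to the right) or lower (blue, to the left) in E6l2-Trp53-KO than in Trp53-KO cells, in % of members, in etoposide with all 6 libraries, in etoposide without library 3 of E6l2-Trp53-KO cells, in DMSO and at high density, with the counts of lower and higher calls at the right. Primary granule genes were called lower in all 4 panels, whereas hypoxia and glycolysis genes gave 27 lower calls in etoposide and 4 in DMSO.

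Interferon-induced genes were called higher more often than lower, and most MHC genes fell. Of 35 interferon response genes tested, 17 were called higher and 3 lower, with a median log2 change of 0.30, with 10 higher and 2 lower without library 3 and 8 higher and 1 lower with the spread of the 6 libraries alone. Rtp4, an interferon-induced chaperone of receptors, had 17.3, 17.0 and 17.7 CPM in E6l2-Trp53-KO cells and 10.9, 10.2 and 10.1 CPM in Trp53-KO cells. The values within each genotype were nearly equal and the log2 difference was 0.74 (edgeR adjusted p = 3.7e-08). Ddx58, which encodes the RNA sensor RIG-I, had 14.9, 14.4 and 16.9 CPM in E6l2-Trp53-KO and 10.7, 10.7 and 9.69 CPM in Trp53-KO cells (log2 0.58). The related sensor Ifih1, which encodes MDA5, went the other way, at 22.1, 21.1 and 22.8 CPM in E6l2-Trp53-KO and 30.3, 31.1 and 30.1 CPM in Trp53-KO cells (log2 -0.47). Ifitm1, a membrane protein against virus entry from a family of similar genes, rose by a log2 change of 0.63. Of 19 genes of MHC class I and II presentation, 12 were called lower and 1 higher, with a median of -0.33. H2-K1, a classical class I heavy chain, had 763, 778 and 631 CPM in E6l2-Trp53-KO and 1009, 989 and 1005 CPM in Trp53-KO cells. Nlrc5, the transcriptional activator of class I genes, had 60.6, 67.7 and 54.5 CPM in E6l2-Trp53-KO and 80.0, 84.0 and 82.4 CPM in Trp53-KO cells. Both were lower in all libraries, with log2 changes of -0.47 for H2-K1 and -0.43 for Nlrc5. H2-K1 and H2-Q4 (log2 -0.82) have near-identical relatives, which makes single class I values uncertain. The 1 member that rose was H2-Ab1, a class II chain, at a log2 change of 1.26 (named after its values were seen).

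Both genotypes carry the Trp53 edit and both had the drug, so comparing them does not measure how much of the p53 response remained. The p53 target genes were read for differences between the genotypes only. Of 38 tested, 9 were called higher, 4 lower and 25 were not called, with a median log2 change of 0.02, and there were 5 higher and 1 lower both without library 3 and with the 6 libraries alone. Cdkn1a, which encodes the cell cycle inhibitor p21, had 2.31, 2.33 and 3.73 CPM in E6l2-Trp53-KO and 1.84, 1.35 and 1.85 CPM in Trp53-KO cells. With Trp53 intact it had 28.8 CPM in E6l2-KO and 13.9 CPM in wildtype cells under the drug. The E6l2-Trp53-KO increase was called with all libraries (log2 0.79, edgeR adjusted p = 0.0078) and not without library 3 (log2 0.45, adjusted p = 0.25). Phlda3, a target that restrains Akt, had 2.57, 2.21 and 2.23 CPM in E6l2-Trp53-KO and 1.27, 1.29 and 1.32 CPM in Trp53-KO cells, and this increase of 0.84 on the log2 scale was called with and without library 3. Trp53inp1, a stress protein of the p53 pathway, rose by a log2 change of 0.63, and Btg2, an antiproliferative gene, by 2.37 at a low level of 1.27 CPM in E6l2-Trp53-KO and 0.246 CPM in Trp53-KO cells. Mdm2, the ubiquitin ligase of p53 (log2 -0.05, SE 0.05), the apoptosis genes Bbc3 (0.03, SE 0.12) and Bax (-0.12, SE 0.07) and Zmat3, an RNA-binding target (0.39, SE 0.22), were not called. Ccng1, cyclin G1, fell by 0.17 on the log2 scale and was not called without library 3. In DMSO, 9 of the 38 p53 targets were called higher and 3 lower. The change in etoposide minus that in DMSO was called for none of them.

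Outside the p53 list, inhibitors of cyclin-dependent kinases differed. Cdkn2a, the locus of p16INK4a and p19ARF, had 36, 36.8 and 22.2 CPM in E6l2-Trp53-KO cells, against 8.86, 8.57 and 8.56 CPM in Trp53-KO cells. It was 3.61-fold higher (log2 1.85, SE 0.14, edgeR adjusted p = 2.2e-12), with library 3 the lowest of the 3 high values. Cdkn2c, p18INK4c, had 32.3, 31.3 and 26.9 CPM in E6l2-Trp53-KO and 43.2, 43.3 and 42.6 CPM in Trp53-KO cells, lower in every library (log2 -0.52). In the BCL2 family 4 of 16 genes were called higher (25%) and 3 lower (18.75%), beside 12% and 12.1% of all genes. Without library 3 there were 2 higher and 2 lower. The proapoptotic Hrk had 2.16, 2.68 and 2.05 CPM in E6l2-Trp53-KO and 1.02, 1.10 and 1.39 CPM in Trp53-KO cells (log2 0.96), and its groups did not overlap.

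The end joining list as a whole was called about as often as genes at large. Of 24 end joining genes tested, 1 was called higher and 4 lower, beside 24.1% of all genes, with a median log2 change of -0.03. Xrcc5, which encodes the Ku80 subunit that binds broken DNA ends, had 1.94, 2.37 and 1.85 CPM in E6l2-Trp53-KO cells, against 3.71, 3.90 and 4.07 CPM in Trp53-KO cells. Every E6l2-Trp53-KO library was below every Trp53-KO library, at a 1.91-fold lower level (log2 -0.94, SE 0.13, edgeR adjusted p = 1.4e-06). The other called members changed by log2 -0.25 (Aptx, which trims failed ligation ends), -0.47 (Polm, a polymerase that fills in ends, named after its value was seen), -0.30 (Nhej1, the XLF factor) and 0.31 (Dclre1c, the Artemis nuclease), and of these Nhej1 and Dclre1c were not called without library 3. Of 47 Fanconi, recombination and damage signalling genes, 2 were called higher and 14 lower with all libraries. There were none higher and 7 lower without library 3, and none higher and 2 lower with the spread of the 6 libraries alone. Of all genes, 14.3% were called without library 3, so the list was then called about as often as genes at large. With the 6 libraries alone, 1332 of 13283 genes were called. Fance, a subunit of the Fanconi core complex, fell by 0.48 on the log2 scale. Among topoisomerases, adduct repair and efflux genes, 4 of 17 were called higher (23.5%) and 3 lower (17.6%), beside 12% and 12.1% of all genes. Without library 3 there were 2 higher and 2 lower. The efflux pump Abcc3 had 3.37, 3.82 and 3.42 CPM in E6l2-Trp53-KO and 1.71, 1.73 and 2.18 CPM in Trp53-KO cells (log2 0.91), and Abcc4, another pump of the family, fell by 0.21.

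Of 51 S phase and replication genes, 27 were called lower and none higher, with a median log2 change of -0.17, with 18 lower without library 3 and 8 with the spread of the 6 libraries alone. Tk1, thymidine kinase, had 52.7, 53.6 and 55.9 CPM in E6l2-Trp53-KO and 69.5, 65.4 and 71.1 CPM in Trp53-KO cells. Rrm2, a subunit of ribonucleotide reductase, had 142, 139 and 140.0 CPM in E6l2-Trp53-KO and 181, 173 and 164 CPM in Trp53-KO cells. Both were lower in all libraries, with log2 changes of -0.34 and -0.30, and both were called without library 3. The clamp loader subunit Rfc5 (log2 -0.37) and the replicative helicase subunit Mcm6 (-0.32) fell as well. Of 40 G2/M and mitosis genes, 5 were called higher with all libraries (median 0.03) and 2 without library 3. Pttg1, securin, had 69.5, 68.3 and 89.6 CPM in E6l2-Trp53-KO and 61.2, 51.1 and 62.3 CPM in Trp53-KO cells (log2 0.39). Of 44 replication-dependent histone genes, 27 were called lower and 1 higher with a median of -0.40, but 7 were lower without library 3, where the median was -0.26. Leaving out library 3 of Trp53-KO cells also gave 7 lower (median -0.35), leaving out its library 1 gave 15, and the spread of the 6 libraries alone gave 10. Histone genes share near-identical sequence, which makes single values uncertain, and their mRNA largely lacks poly(A) tails.

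Lists of protein synthesis and folding differed from one another. Of 42 genes of the unfolded protein and integrated stress responses, 19 were called lower and none higher, 16 were lower without library 3, and 11 with the spread of the 6 libraries alone. Of 42 ribosome biogenesis genes 1 was higher and 4 lower, and of 14 heat shock chaperones 2 were higher and 1 lower. Beside 24.1% of all genes, neither of these 2 lists was called more often than genes at large. Xbp1, the transcription factor of the unfolded protein response, had 82.1, 79.7 and 74.9 CPM in E6l2-Trp53-KO and 109, 107 and 104 CPM in Trp53-KO cells. All E6l2-Trp53-KO libraries were lower (log2 -0.44, edgeR adjusted p = 3.7e-09). Herpud1, which serves the degradation of misfolded proteins, fell by 0.35 on the log2 scale, and the transcription factor Cebpb fell by 0.53. Ribosomal protein genes were called lower in 29 of 79 cases and not called in the other 50, with a median of -0.19, and the count was 15 without library 3, 6 without library 3 of Trp53-KO cells, and 0 with the spread of the 6 libraries alone. Among 20 tRNA synthetases 10 were lower with all libraries, 3 without library 3, and 1 with the 6 libraries alone.

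Mitochondrially encoded genes were called higher in 9 of 13 cases with all libraries and in none without library 3. Without library 2 or 3 of Trp53-KO cells 4 were higher, with the 6 libraries alone 2 were, and the median log2 change was 0.36 with it and 0.09 without it. For mt-Nd1, a subunit of complex I, the E6l2-Trp53-KO libraries had 669, 634 and 1126 CPM, against 631, 581 and 544 CPM in Trp53-KO libraries. Library 3 was the only one far above the others. Histone genes took 2.6%, 2.67% and 2.13% of counts in E6l2-Trp53-KO libraries 1 to 3 and 2.83% to 3.16% in Trp53-KO libraries, and mitochondrial genes took 2.5%, 2.33% and 2.99% in E6l2-Trp53-KO libraries and 2.1% to 2.39% in Trp53-KO libraries. The lists of primary granule, mast cell, megakaryocyte and erythroid, and hypoxia and glycolysis genes deviated by similar amounts in all 3 E6l2-Trp53-KO libraries.

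**Figure D3:**
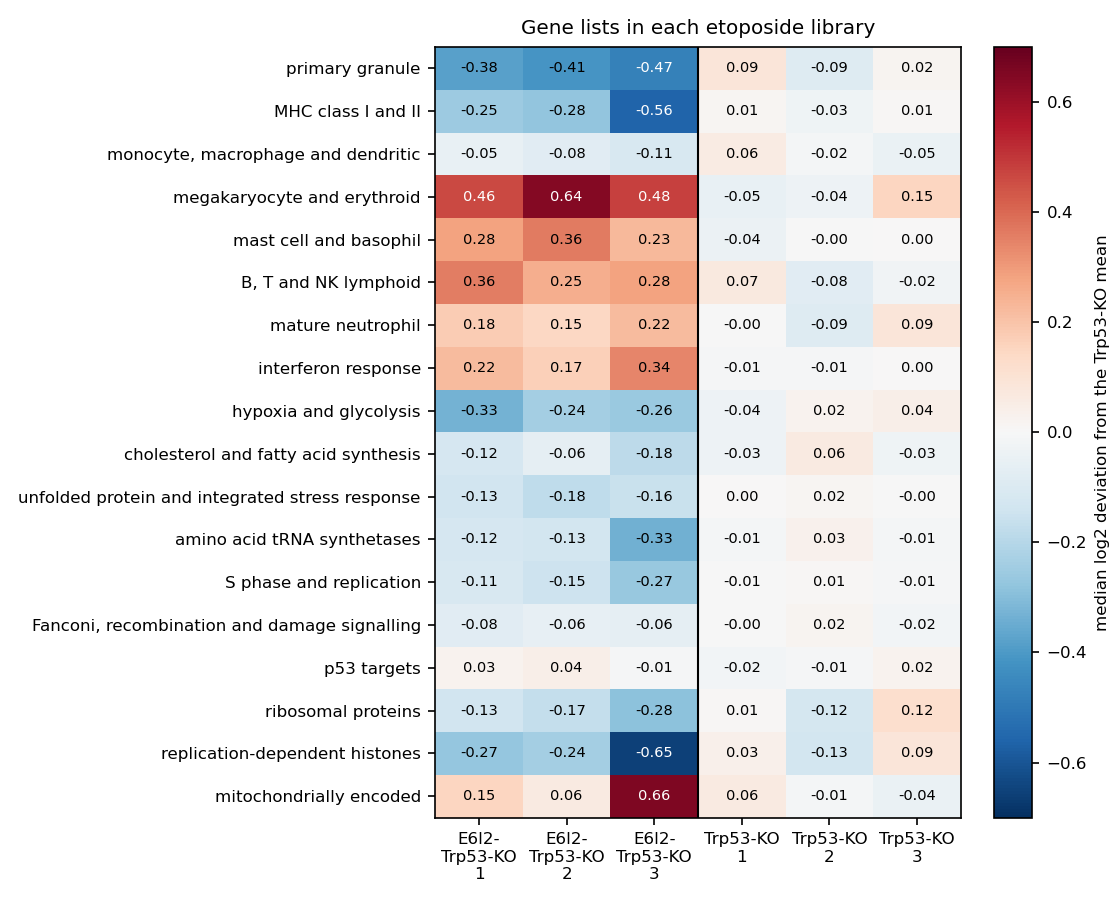
Median log2 deviation of each gene list from the mean of the 3 Trp53-KO etoposide libraries, in each E6l2-Trp53-KO library (left) and each Trp53-KO library (right), red above and blue below. Primary granule genes lie at -0.38, -0.41 and -0.47 in the E6l2-Trp53-KO libraries, whereas mitochondrially encoded genes lie at 0.15 and 0.06 in libraries 1 and 2 and at 0.66 in library 3.

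The same genotypes in DMSO, in 6 other libraries, show which of these differences were present without the drug. There 2098 genes (14.9%) were called, 8.14% of all genes higher and 6.79% lower, and 1396 of them had the same direction in both conditions, 41.2% of the etoposide calls and 66.5% of the DMSO calls, while 5 had opposite directions. At high density 2793 genes (19.9%) were called, 11.3% of all genes higher and 8.55% lower, and 1383 shared their direction with etoposide, 40.8% of the etoposide calls and 49.5% of the high density calls. In all 3 conditions 658 genes were called higher and 413 lower. Across the 14059 genes, log2 changes in etoposide and in DMSO had a Pearson r of 0.64, and those in etoposide and at high density an r of 0.60, where each pair shares edited lines but no library.

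The largest shared changes were those of the genes already named. Cd27 had log2 changes of 3.76 in etoposide, 2.98 in DMSO and 2.75 at high density. Tfpi had 3.50, 4.47 and 5.11, and Capn2 had 3.24, 3.27 and 3.90 in the same conditions. Sorl1 gave -2.59, -2.88 and -2.85, and Arap2 gave -2.41, -2.51 and -2.27. Each of these was called in all 3 conditions, so these differences between the genotypes were present with and without etoposide. Primary granule genes were lower in 11 of 14 cases in DMSO and 8 at high density, and megakaryocyte and erythroid genes were higher in 11 of 16 cases in DMSO and 10 at high density. Mature neutrophil genes, 7 higher and 3 lower of 19 in etoposide, were 3 higher and 3 lower in DMSO. The lysosomal membrane protein Cd63 had 148, 149.9 and 175 CPM in E6l2-Trp53-KO and 44.6, 36.6 and 36.8 CPM in Trp53-KO cells in etoposide, and log2 changes of 2.00, 1.90 and 1.58 in the 3 conditions. Xrcc5, at -0.94 in etoposide, had log2 changes of -1.53 in DMSO and -1.84 at high density, and its etoposide minus DMSO difference of 0.59 was not called (edgeR adjusted p = 0.23). Cdkn2a was higher by 2.52 in DMSO and by 2.91 at high density.

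**Figure D4:**
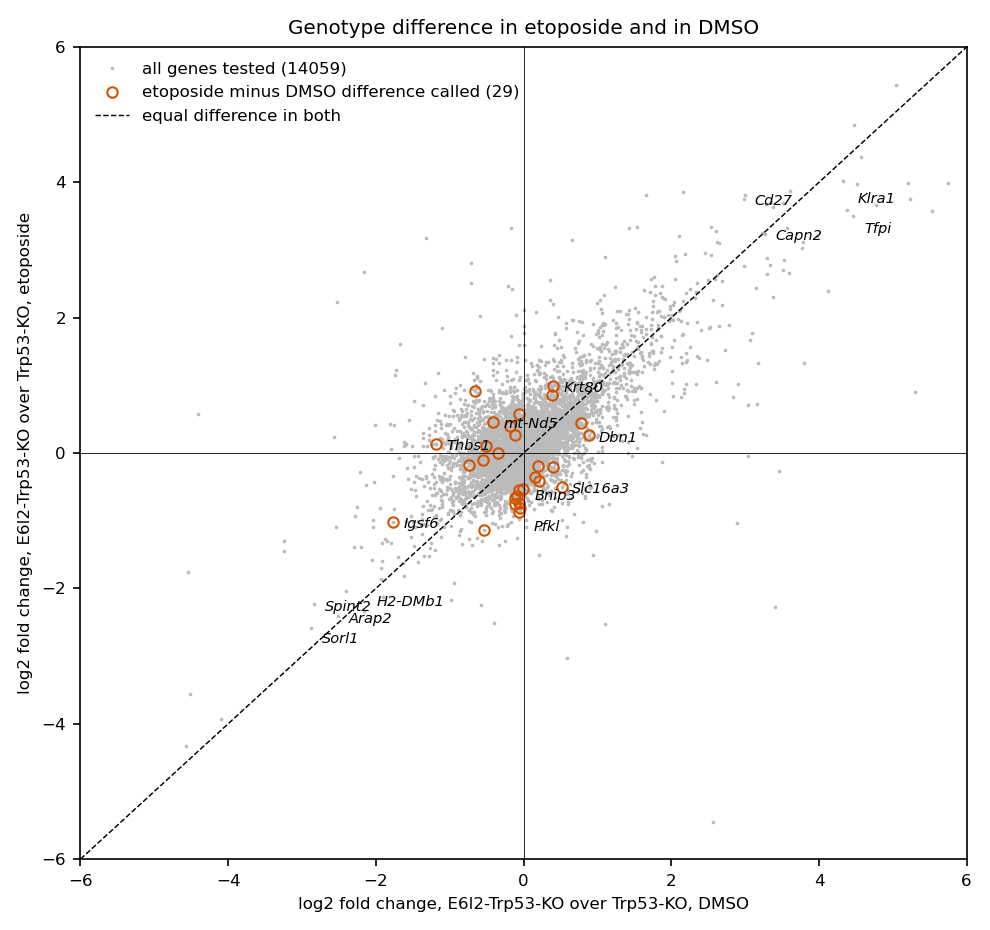
Log2 fold change of E6l2-Trp53-KO over Trp53-KO cells in etoposide (vertical) against the same in DMSO (horizontal), one grey point for each of 14059 genes, with 10 genes beyond the axes, and orange circles for the 29 genes whose etoposide minus DMSO difference was called. Cd27, Tfpi and Capn2 lie at the upper right and Sorl1 and Arap2 at the lower left near the dashed line of equal difference, while Thbs1 lies left of the line at -1.19 in DMSO and 0.13 in etoposide.

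A test of the difference itself, the genotype change in etoposide minus that in DMSO, called 29 of 14059 genes (0.206%), 13 higher (0.0925%) and 16 lower (0.114%). At an unadjusted p under 0.05 there were 1920 genes. Of 1640 genes called in etoposide and in neither other condition, 9 had a called difference, so most of them were not shown to depend on the drug. Leaving out single libraries gave 6 to 311 calls, and 8 without library 3 of E6l2-Trp53-KO etoposide. Without library 1 of that group there were 311 and without library 2 there were 236. The 6 libraries whose removal left 6 to 14 calls besides library 3 were E6l2-Trp53-KO DMSO 2 (6) and 3 (10), Trp53-KO DMSO 1 (7) and 3 (14), and Trp53-KO etoposide 2 (9) and 3 (6).

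Among the genes with a positive difference, Thbs1, the matrix protein thrombospondin 1, was also called without library 3. In DMSO it had 12.8, 11.8 and 10.8 CPM in E6l2-Trp53-KO cells, against 30.7, 24.4 and 25.6 CPM in Trp53-KO cells, and in etoposide it had 33.4, 37.2 and 32.8 CPM in E6l2-Trp53-KO and 36, 28.4 and 29.9 CPM in Trp53-KO cells. The genotypes were thus separated in DMSO and overlapped in etoposide (log2 difference of changes 1.32, SE 0.20, edgeR adjusted p = 0.0018). Without library 3 the difference was 1.34 (adjusted p = 0.0028). Igsf6, an immunoglobulin family membrane protein of myeloid cells, had log2 changes of -1.02 in etoposide and -1.77 in DMSO, a difference of 0.75. Ddx58, Krt80, a keratin, and Nhsl2, a relative of an actin regulator, had differences of 0.64, 0.59 and 0.61, and mt-Nd5 one of 0.87. Of these 5 genes, Igsf6 included, none had a called difference without library 3.

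Genes of hypoxia and glycolysis made up 9 of the 16 negative differences. In etoposide 27 of 47 list members were called lower and 3 higher, with a median log2 change of -0.28, against 4 lower, 5 higher and a median of -0.01 in DMSO. Without library 3 the etoposide counts were 26 lower and 2 higher, over all libraries left out in turn 22 to 28 were lower, and with the spread of the 6 libraries alone 19 of 46 were lower and 2 higher. The 9 members whose difference was called ranged between 2 and 16 as single libraries were left out, and with the 12 libraries of the 4 groups alone none was called. At high density 13 were lower and 3 higher, and a difference between etoposide and high density was not tested.

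The enzymes of glycolysis described here, a choice from the list, were all lower in etoposide. Pfkl, the liver-type phosphofructokinase that controls the committed step, had 115, 122 and 80.8 CPM in E6l2-Trp53-KO cells, against 188, 191 and 201 CPM in Trp53-KO cells in etoposide. In DMSO it had 203, 239 and 214 CPM in E6l2-Trp53-KO and 234, 201 and 249 CPM in Trp53-KO cells. The groups were apart under the drug and overlapped without it (log2 difference of changes -0.81, SE 0.14, edgeR adjusted p = 0.0045, and -0.67 without library 3, adjusted p = 0.0052). Eno1, enolase, had 671, 681 and 595 CPM in E6l2-Trp53-KO and 1108, 1070.2 and 1114 CPM in Trp53-KO cells in etoposide (log2 -0.76), and on average 1154 CPM in E6l2-Trp53-KO and 1251 CPM in Trp53-KO cells in DMSO. The platelet-type phosphofructokinase Pfkp had 87.5, 89.6 and 81.3 CPM in E6l2-Trp53-KO and 139, 150.3 and 151 CPM in Trp53-KO cells in etoposide. Its log2 change of -0.77 stood beside -0.47 in DMSO and -0.54 at high density, and its difference of -0.30 from DMSO was not called. Pkm, pyruvate kinase (-0.51), Tpi1, triosephosphate isomerase (-0.53), Pgam1, phosphoglycerate mutase (-0.54), Pgk1, phosphoglycerate kinase (-0.44), Gpi1, glucose phosphate isomerase (-0.41), and Slc2a1, the glucose transporter GLUT1 (-0.50), were lower in etoposide too. Pkm, Tpi1, Pgam1, Pgk1, Gpi1 and Slc2a1 were named after their values were seen. Other enzymes of the list, among them Hk1, Hk2, Aldoa, Gapdh and Ldha, are not described here. The shared direction of those named therefore does not speak for the whole pathway, and 17 of the 47 list members were not called in etoposide.

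An exit of the pathway and known hypoxia-inducible genes were lower as well. Slc16a3, the lactate exporter MCT4, had 12.4, 16.7 and 12.9 CPM in E6l2-Trp53-KO and 17.2, 20.2 and 21.6 CPM in Trp53-KO cells in etoposide. In DMSO it had 30.0, 45.3 and 37.4 CPM in E6l2-Trp53-KO and 22.4, 25.1 and 31.9 CPM in Trp53-KO cells, so that its change was -0.50 with the drug and 0.52 without it. All E6l2-Trp53-KO libraries were below all Trp53-KO libraries in etoposide, and in DMSO the groups overlapped. Without library 3 neither the etoposide change of Slc16a3 (-0.45) nor its difference (-0.98) was called. Bnip3, a mitophagy receptor induced by HIF-1, had 52.0, 45.5 and 59.6 CPM in E6l2-Trp53-KO and 85.0, 94.9 and 97.4 CPM in Trp53-KO cells in etoposide (log2 -0.81, against -0.05 in DMSO). Pdk1, the kinase that shuts pyruvate out of the citric acid cycle, had 60.1, 58.3 and 54.5 CPM in E6l2-Trp53-KO and 86.8, 91.7 and 95.2 CPM in Trp53-KO cells in etoposide. Its groups were apart by a log2 change of -0.66, against -0.12 in DMSO, and its difference was also called without library 3. Hif1a mRNA itself had a log2 change of 0.01 (SE 0.04, adjusted p = 0.86). The members that rose were Ak4, adenylate kinase 4 (0.67), Pfkfb3, which makes the activator of phosphofructokinase (0.25), and Pdk3, a relative of Pdk1 (0.16), named after their values were seen. The sources used here give no growth rate or cell number at harvest, and their part in these values was not tested.

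Hypoxia-inducible factors bind DNA at short cores, and the promoters of the members with a called difference were searched for ACGTG and GCGTG on both strands. RefSeq windows on GRCm38.p6 span 250 bases before to 50 after a gene's start, and those shown belong to the 4 members with a single window and at least 1 match, on the gene's own strand, with matches in capitals. A match on the other strand reads CACGT or CACGC, and overlapping matches run together. The window of Slc16a3 is chr11:120948817-120949116 on the plus strand, that of Pfkl chr10:78009758-78010057 on the minus strand, that of Bnip3 chr7:138909457-138909756 on the minus strand and that of P4ha1, a prolyl hydroxylase of collagen, chr10:59323046-59323345 on the plus strand.
Slc16a3: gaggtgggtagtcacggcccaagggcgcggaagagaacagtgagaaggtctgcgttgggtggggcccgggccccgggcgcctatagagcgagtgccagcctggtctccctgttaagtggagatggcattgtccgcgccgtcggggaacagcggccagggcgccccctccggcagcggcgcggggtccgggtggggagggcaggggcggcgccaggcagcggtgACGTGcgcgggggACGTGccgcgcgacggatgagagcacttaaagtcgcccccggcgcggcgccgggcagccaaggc
Pfkl: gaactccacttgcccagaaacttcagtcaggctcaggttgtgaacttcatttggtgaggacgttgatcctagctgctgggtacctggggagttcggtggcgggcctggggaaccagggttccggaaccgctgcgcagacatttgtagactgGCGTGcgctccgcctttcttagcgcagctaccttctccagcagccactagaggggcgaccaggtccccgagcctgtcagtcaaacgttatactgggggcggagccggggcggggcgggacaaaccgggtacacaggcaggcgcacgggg
Bnip3: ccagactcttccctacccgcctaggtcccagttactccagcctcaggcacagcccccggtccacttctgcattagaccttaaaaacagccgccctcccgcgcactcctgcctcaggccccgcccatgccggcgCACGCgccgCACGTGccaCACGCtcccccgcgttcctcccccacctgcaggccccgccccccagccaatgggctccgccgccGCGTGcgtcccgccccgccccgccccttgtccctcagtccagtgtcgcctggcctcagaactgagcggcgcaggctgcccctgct
P4ha1: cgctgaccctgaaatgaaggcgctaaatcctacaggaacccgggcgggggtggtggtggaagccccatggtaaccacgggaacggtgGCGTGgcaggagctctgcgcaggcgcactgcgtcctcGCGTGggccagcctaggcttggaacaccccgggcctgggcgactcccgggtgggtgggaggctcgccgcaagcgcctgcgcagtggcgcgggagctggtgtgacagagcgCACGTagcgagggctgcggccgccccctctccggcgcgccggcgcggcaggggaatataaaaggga
They hold 2, 1, 5 and 3 matches, and the single window of Tpi1 holds none. Of the 27 list members lower in etoposide, 26 had a window in the table and 24 of these (92.3%) had a match in at least 1 window, against 15 of 16 other members (93.8%). Of all 32851 windows of this length 43.8% had a match, and of 10118 genes tested with a window in the table, 64.8% had a match in at least 1.

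**Figure D5:**
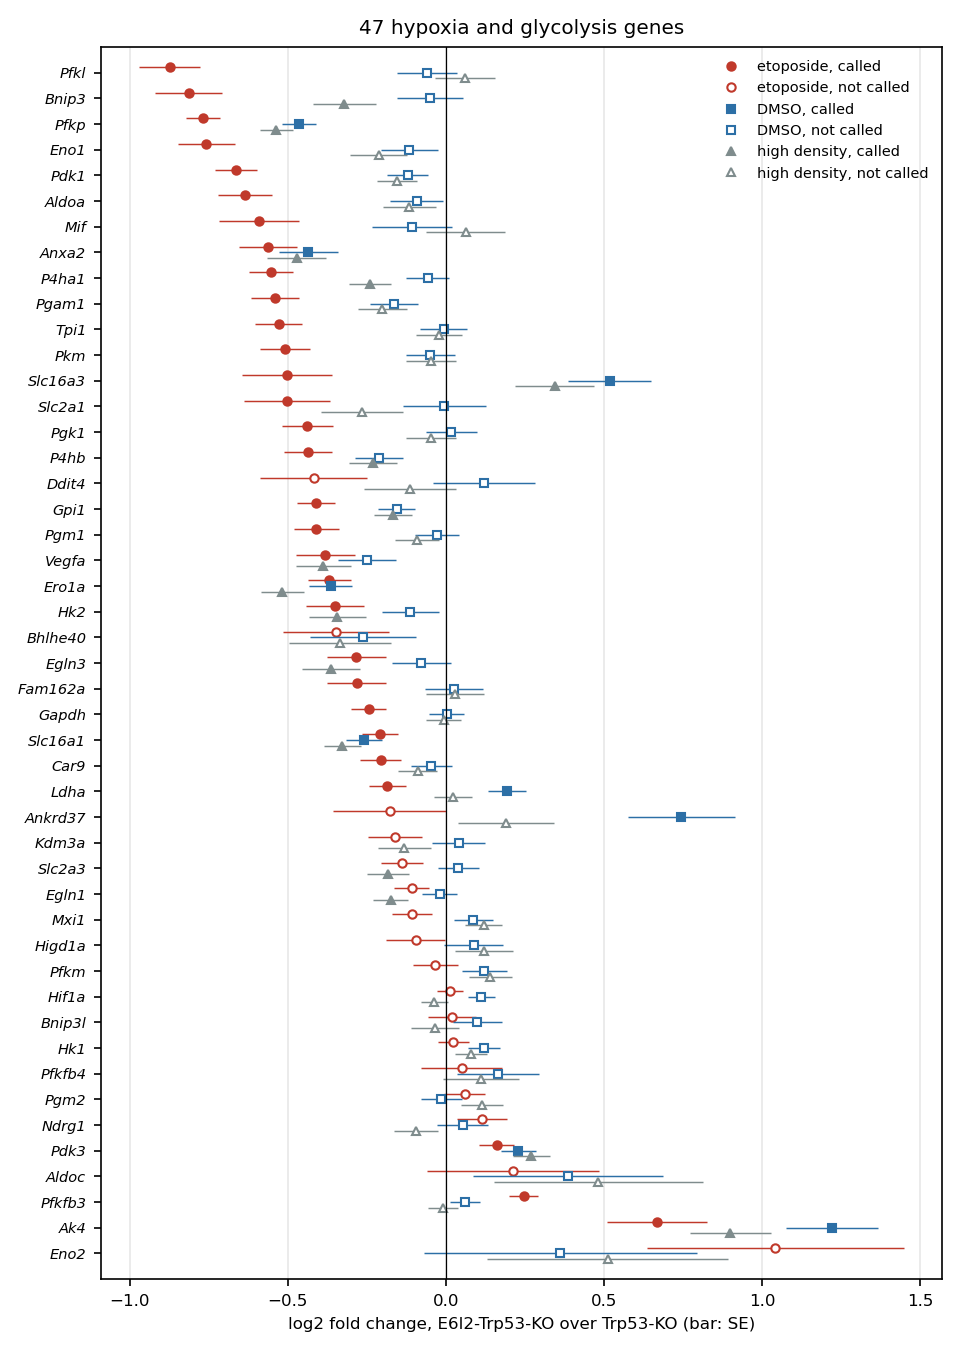
Log2 fold change of E6l2-Trp53-KO over Trp53-KO cells for the 47 hypoxia and glycolysis genes tested, ordered by the change in etoposide, with the SE as a bar, in etoposide (red circles), DMSO (blue squares) and high density (grey triangles), filled where called. In etoposide 27 members lie left of zero as filled circles, led by Pfkl at -0.87, and in DMSO 4 lie left of zero as filled squares.

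Sterol synthesis held 2 more of the negative differences. Of 34 cholesterol and fatty acid synthesis genes, 11 were lower and 1 higher in etoposide, against none lower and 9 higher in DMSO, but 4 were lower in etoposide without library 3, and with the spread of the 6 libraries alone 1 was lower and 1 higher. Lss, lanosterol synthase, had 51.7, 59.7 and 41.3 CPM in E6l2-Trp53-KO and 64.5, 70.0 and 66.7 CPM in Trp53-KO cells in etoposide (log2 -0.41, against 0.21 in DMSO, difference -0.62). Fdps, farnesyl diphosphate synthase, had 251, 254 and 176 CPM in E6l2-Trp53-KO and 287, 297 and 281 CPM in Trp53-KO cells, with a difference of -0.50. Library 3 was the lowest for both, and neither difference was called without it. Further negative differences were those of Grhpr, a glyoxylate reductase (-0.68), and Dbn1, the actin-binding protein drebrin (-0.62), which was higher in both conditions.

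The Ercc6l2 edit under the same drug with Trp53 intact gave another set of differences, with no shared direction across genes at large. Between E6l2-KO and wildtype cells in etoposide 688 genes (4.89%) were called, 278 higher (1.98%) and 410 lower (2.92%), with 452 to 507 calls when any of the 6 libraries was left out and 1830 with those 6 alone. Of 326 genes called in both comparisons, 153 had the same direction and 173 the opposite direction, and across the 14059 genes the log2 changes had a Pearson r of 0.02 (-0.01 without library 3), with no library shared. Cd27, at 13.6-fold in E6l2-Trp53-KO cells, had a log2 change of -0.01 in E6l2-KO cells. Tfpi and Ptprcap fell in E6l2-KO cells, with log2 changes of -2.06 and -2.01, and rose in E6l2-Trp53-KO cells. Arap2, Spint2 and Sorl1 fell in both, with log2 changes of -1.57, -2.26 and -1.21 in E6l2-KO cells. Interferon response genes were lower in 11 of 35 cases and higher in none in E6l2-KO cells (median log2 -0.44), and hypoxia and glycolysis genes gave 1 lower call. Rtp4 changed by -0.63 in E6l2-KO cells, against 0.74 in E6l2-Trp53-KO cells. Other lists fell in both comparisons. In E6l2-KO cells 20 of 34 cholesterol and fatty acid synthesis genes were lower and none higher (median log2 -0.28). Of 19 MHC genes, 8 were lower and none higher there (median -0.26). In E6l2-Trp53-KO cells with all libraries, 11 and 12 genes of these lists were lower and 1 higher in each. p53 targets were higher in 13 of 38 cases in E6l2-KO cells, with Cdkn1a at 28.0, 30.8 and 27.4 CPM in E6l2-KO and 12.4, 14.1 and 15.1 CPM in wildtype cells. A test of the difference between the 2 Ercc6l2 comparisons called 2085 genes (14.8%), 1073 higher (7.63%) and 1012 lower (7.2%) in the Trp53-edited pair. Edited lines, Trp53 status and their history in culture cannot be told apart in this difference.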

How the data were processed

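RNA-seq of 48 libraries was deposited as 1 table of expected counts per gene, values that the authors estimated and that need not be whole (71.5% lay within 0.01 of a whole number). The sources used here give no aligner, counter, annotation or strand setting. Counts of 25528 genes were rounded, and 36 libraries of 12 groups, 22.5 to 40.9 M counts each (M, in units of 1e06), entered 1 fit with a mean per group, TMM scaling, edgeR's default low-count filter and 24 residual degrees of freedom (edgeR 4.0.16 in R 4.3.3), so groups share 1 estimate of spread. Clones were left out. CPM values are the computed TMM-scaled levels, given as mean ± SD over 3 libraries. On simulated counts of 14059 genes for the etoposide comparison, 85.1%, 98.5% and 100% of genes changed 1.5-, 2- and 3-fold were recovered, with 12 false calls. The simulated libraries of a group shared a single mean and the spread of the whole fit. A library that stands apart, as library 3 of E6l2-Trp53-KO cells does, was not simulated, so these shares do not cover its effect on the calls.

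Genes named are a fixed panel, the 12 largest increases and 12 largest decreases (called with and without library 3, at least 5 CPM, no overlap), the 6 highest and 6 lowest differences from DMSO, 6 up and 6 down shared by 3 conditions, and up to 4 members per list with the lowest p. Exceptions are marked. Members, 37 gene lists and tests were chosen with earlier results of these data known. Same-numbered libraries at high density deviated together (r of 0.19, 0.13 and 0.11), so those numbers pair by the rule of an r over 0.1. Those in etoposide (r of 0.04, -0.10 and -0.05) did not, and in DMSO (r of 0.15, 0.02 and -0.09) only number 1 passed. The alternatives were RLE scaling, DESeq2 1.42.0, no filter, a replicate block, only the groups compared, each library left out, and an offset for length and GC chosen after seeing the data. Promoter windows are from RefSeq and 99.6% of genes matched GENCODE M21 for length and GC. Intervals and fold changes cover counting and library spread only.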

Additional observations from a re-analysis of the deposited data

Results flagged for a closer look

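Results are listed here because a test of the difference between 2 contrasts was called. The genotype change in etoposide differed from that in DMSO for 29 genes. Among those named, the log2 difference, etoposide minus DMSO, was positive for Thbs1 (1.32), mt-Nd5 (0.87), Igsf6 (0.75), Ddx58 (0.64), Nhsl2 (0.61) and Krt80 (0.59). It was negative for Slc16a3 (-1.02), Pfkl (-0.81), Bnip3 (-0.76), Grhpr (-0.68), Eno1 (-0.64), Dbn1 (-0.62), Lss (-0.62), Stc2 (-0.61), Pdk1 (-0.54) and Fdps (-0.50). Of these 16, Thbs1, Pfkl, Bnip3 and Pdk1 were also called without library 3 of E6l2-Trp53-KO etoposide.

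The change of E6l2-Trp53-KO against Trp53-KO cells differed from that of E6l2-KO against wildtype cells, all in etoposide, for 2085 genes. The log2 difference, Trp53-edited minus Trp53-intact, was 5.56 for Tfpi, 4.77 for Ptprcap, 3.77 for Cd27 and 3.70 for Capn2, and -2.08 for Tgm3, -2.01 for H2-DMb1, -1.76 for Cep170b and -1.38 for Sorl1.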

How the results depend on the processing

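Of the 3388 etoposide calls, RLE scaling gave 3434, DESeq2 3316, no filter 3452 and the length and GC offset 3629. Only the 6 libraries compared gave 1332 (850 higher, 482 lower), and with the replicate block added 1088 (710 higher, 378 lower). Leaving out single libraries gave 2045 to 4026 calls, 1056 to 1832 higher and 989 to 2194 lower, lowest without library 3 of E6l2-Trp53-KO cells. List members called numbered 405, and 177 with the 6 libraries alone, 157 with the block added, and 258 to 438 with single libraries left out. The 29 differences between etoposide and DMSO became 81 with DESeq2, 228 with no filter, 2 with only the 4 groups, 49 with the replicate block, and 6 to 311 with single libraries left out. The 688 E6l2-KO calls became 1830 with only those 2 groups, 1860 with the block added, and 452 to 507 with single libraries left out. With the replicate block in the whole fit there were 3504 calls in etoposide, 2178 in DMSO and 2857 at high density, and no same-numbered pair in etoposide correlated over 0.1. No named gene that was called changed sign, but list medians near 0 did. Without library 3 the median of 7 lists did so, among them topoisomerases, adduct repair and efflux at -0.04, against 0.09 with all libraries, and p53 targets had -0.0034 without library 1 of Trp53-KO cells, against 0.02. The cause of these shifts was not tested, beyond the smaller number of libraries or genes in those fits.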

Other observations

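Members of several other gene lists also differed between E6l2-Trp53-KO and Trp53-KO cells in etoposide. Of 34 transcription factors of blood cell fate, 8 were called higher and 7 lower, with 8 higher and 2 lower without library 3. Ikzf2, the lymphoid factor Helios, had 37.1, 34.6 and 44.3 CPM in E6l2-Trp53-KO and 21.7, 21.8 and 26.9 CPM in Trp53-KO cells, with no overlap (log2 0.73, edgeR adjusted p = 2.3e-08). Cebpa, the factor of granulocyte and monocyte commitment, had a log2 change of -0.17 that was called with all libraries and not without library 3. Of 14 Hox, Meis and Pbx genes, 2 were called higher (14.3%) and 3 lower (21.4%), beside 12% and 12.1% of all genes, so the list shows little beyond genes at large. Among those called, Hoxa9 (-0.26) and Hoxa10 (-0.40), factors of immature myeloid cells, fell. Their partners Meis1 (0.32) and Pbx3 (0.21) rose, and all 4 were also called without library 3. Myc, at a log2 change of -0.20, was called with all libraries and not without library 3.

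Receptors and adhesion genes changed in both directions, with 10 of 33 growth factor and cytokine receptors and their targets higher and 6 lower. In that list 8 were higher and 3 lower without library 3. Ccr1, a chemokine receptor, had 23.5, 18.9 and 23.6 CPM in E6l2-Trp53-KO cells, against 9.55, 8.47 and 6.61 CPM in Trp53-KO cells (log2 1.43), and every E6l2-Trp53-KO library was higher. Among 32 matrix and adhesion genes, 8 were higher and 8 lower. The integrin chains Itgb5 (-0.86) and Itga9 (-0.67) fell, while Spp1, the secreted protein osteopontin, rose (0.67). In the antioxidant list, 4 of 29 genes were higher (13.8%) and 9 lower (31.0%), beside 12% and 12.1% of all genes. Without library 3 there were 4 higher and 5 lower. Gsr, glutathione reductase (-0.30), with G6pdx (-0.30) and Pgd (-0.33) of the pentose phosphate pathway, fell with and without library 3. Of 43 lysosome and autophagy genes, 7 were higher and 7 lower, 16.3% each beside 12% and 12.1% of all genes, so the list shows little beyond genes at large. Ctsl, the protease cathepsin L, rose by a log2 change of 0.51. Stromal, endothelial and fibroblast markers summed to 146 to 158 CPM in E6l2-Trp53-KO and 93.8 to 96.6 CPM in Trp53-KO libraries. Of the 18 members, 14 were under 1 CPM in each genotype, with Cdh5, Tek, Col3a1 and Cxcl12 at 0 in both. The sum thus rests on few genes, and of 4 members tested 2 were called higher, so it does not speak for the list.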
